A study of Homo sapiens with 8 samples.

Results

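Untreated Kasumi-1 cells were compared with untreated HL60 cells, the baseline of a study that exposed both leukaemia lines to cinobufagin, a bufadienolide of toad venom. The comparison used 4 of the 8 RNA sequencing libraries of the study, 2 of untreated HL60 (cinobufagin at 0 nM, medium with 10% fetal bovine serum) and 2 of untreated Kasumi-1 (0 nM, 20% serum). The other 4 libraries came from the same lines after 24 h with 100 nM cinobufagin, and they entered the fit only for its estimate of the spread and for a closing comparison of the lines under treatment. Because each line had its own serum share, line and serum cannot be told apart. Each group held 2 libraries of 1 cell line, and the labels do not say whether they were separate cultures, so the p-values speak only of how far the libraries at hand vary, and that variation may be technical. The values are FPKM, fragments per kilobase of transcript and per unit of mapped fragments, which scale each gene to its length and to its library. Of 25593 rows in the table, 11749 genes were tested: those with an FPKM of at least 1 in 2 or more of the 4 untreated libraries, leaving out short RNAs and symbols found on more than 1 row. KLF1, at 0.951 and 1.23 FPKM in HL60 and 1.03 and 1.31 in Kasumi-1, lay just inside that limit, and POU4F1, at 0.494 and 0.376 against 0.240 and 0.189, lay outside it. Where 2 values or pairs are joined by "against", HL60 comes first and Kasumi-1 second.

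Both lines grow from acute myeloid leukaemia and stand at early steps of the granulocyte lineage. Kasumi-1 is a myeloblast line with the RUNX1-RUNX1T1 fusion of the t(8;21) translocation, which joins the DNA-binding domain of the core binding factor RUNX1 to the corepressor RUNX1T1 and recruits NCOR and histone deacetylase complexes to RUNX sites. HL60 is a promyelocyte-like line known for its amplified MYC gene. During granulocyte maturation, myeloblasts carry stem cell surface proteins, promyelocytes fill primary granules with myeloperoxidase, serine proteases and defensins, and later cells make specific granules, while eosinophils take a separate branch with their own basic granule proteins. Transcription factors of the CEBP family and PU.1, encoded by SPI1, drive these steps.

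The libraries of a line resembled each other far more than those of the other line. Across the tested genes, which are not independent replicates, log2(FPKM + 1) correlated with a Pearson's r of 0.9968 between the HL60 libraries, 0.9955 between the Kasumi-1 libraries, and 0.8206 to 0.8263 between lines. No nonzero value was shared by the libraries of a line. Relative depth, taken from how the lowest values are spaced, ranged from 0.97 to 1.06, and 10858 to 11371 genes per library reached an FPKM of 1. The 4 libraries matched their labels in RUNX1T1, RUNX1 and MYC. Not all genes listed to identify the lines did so. POU4F1 was under 1 FPKM in all 4 libraries and slightly lower in Kasumi-1. CDKN2A overlapped between the lines, at 9.57 and 8.14 FPKM in HL60 and 8.40 and 7.85 in Kasumi-1. RUNX1T1 was listed at 0 in both HL60 libraries and stood at 17.4 and 20.8 FPKM in Kasumi-1, and RUNX1 stood at 14.96 and 17.2 in HL60 and 45.4 and 51.1 in Kasumi-1. Reads of the fusion transcript can fall in the rows of both genes, and the rows do not separate fusion from normal transcripts. MYC stood at 786 and 749 FPKM in HL60 and 308 and 310.1 in Kasumi-1. The myeloid markers MPO and CD33 were present in both lines, at 3327 ± 59 and 73.0 ± 3.8 FPKM in HL60 and 6056 ± 60 and 31.9 ± 0.10 in Kasumi-1 (mean ± SD, n = 2 libraries, as in all such values below).

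Most genes differed between the lines. A linear model on log2(FPKM + 1), fitted with limma over all 8 libraries and adjusted by the Benjamini-Hochberg method, called 4449 genes higher in Kasumi-1 and 4127 lower at an adjusted p under 0.05. Together these calls were 73% of the tested genes, 37.9% for the higher and 35.1% for the lower ones. Counts of called genes in the lists, families and neighbours below are to be read beside these shares. Genes that differed by at least 2-fold on this scale, which understates differences of low genes, numbered 1696 higher and 1258 lower in Kasumi-1, or 14.4% and 10.7% of those tested and 25.1% in both directions together. At least 8-fold differences were seen for 249 higher and 140 lower genes. In 10090 genes the 2 libraries of one line lay entirely above or below those of the other line, and 3173 genes were not called. The median difference of all tested genes was 0.01 on the log2 scale, so a difference given below is also close to a difference relative to the typical gene. FPKM does not show the amount of mRNA per cell, and in bulk cultures fewer cells of a type and less RNA per cell cannot be told apart.

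**Figure D1:**
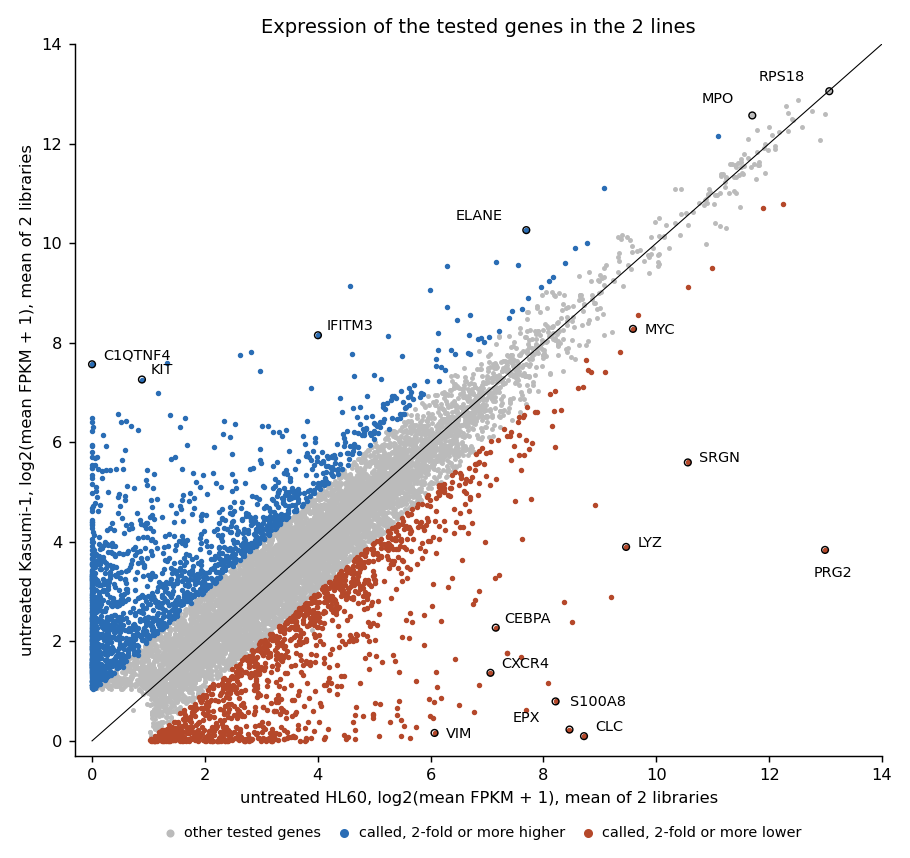
Each point is 1 of 11749 tested genes, placed by log2(mean FPKM + 1) in untreated HL60 (x axis) and untreated Kasumi-1 (y axis), with means over 2 libraries and the diagonal marking equal levels. Blue points are 1696 genes called at least 2-fold higher in Kasumi-1 and red points 1258 genes called at least 2-fold lower, and PRG2 lies farthest below the diagonal.

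The largest differences towards Kasumi-1 included KIT and CD34, found on progenitor cells, and the secreted factors C1QTNF4 and TRH. By rule, the 15 genes per direction with the largest difference and a mean of at least 5 FPKM in the higher line were taken. C1QTNF4, which encodes a secreted C1q-like protein, was listed at 0 in both HL60 libraries and stood at 205 and 172 FPKM in Kasumi-1 (difference 7.56, SE 0.09, limma adjusted p = 5.51e-10). TRH, the precursor of thyrotropin-releasing hormone, was listed at 0 against 90.4 and 87.5, and PRSS21, which encodes the membrane serine protease testisin, at 0 against 92.5 and 75.2. A difference from genes listed at 0 depends on the added 1 and is no fold change. KIT, the receptor of stem cell factor, stood at 0.697 and 0.995 FPKM in HL60 and 146 and 159 in Kasumi-1, a difference of 6.38 (SE 0.09, limma adjusted p = 9.66e-10). FCGRT, which encodes the neonatal Fc receptor, went from 1.53 and 1.5 in HL60 to 193 and 190.1 in Kasumi-1 (6.26, SE 0.05). The libraries of the lines did not overlap for any of these genes, as the choice by size of difference implies. The same held for 10090 of all 11749 tested genes. EPCAM, an epithelial adhesion molecule, stood at 0 and 0.0359 FPKM against 77.3 and 78.5, and SPARC, a matrix glycoprotein, at 0.139 and 0.148 against 70.3 and 70.0. CD34, the surface marker of stem cells, was listed at 0 against 61.2 and 58.5. Further genes listed at 0 in HL60 were RAB34, a Rab GTPase (73.9 FPKM in Kasumi-1), GPX7, an ER peroxidase (60.8), and the immunoglobulin-type receptors VSTM1 (55.1) and TMIGD2 (51.2). The tubulin gene TUBB6, the lysosomal glucosidase gene GAA and SPINT2, a protease inhibitor, completed the set with differences of 5.90, 5.81 and 5.81.

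The largest differences towards HL60 included the eosinophil genes PRG2, CLC and EPX and the calprotectin genes S100A8 and S100A9. PRG2, the precursor of eosinophil major basic protein, stood at 8599.7 and 7663 FPKM in HL60, where only RPS18 and RPS27 were more abundant, and at 14.7 and 11.9 in Kasumi-1 (difference −9.16, SE 0.17, limma adjusted p = 2.47e-09). CLC, which encodes the Charcot-Leyden crystal protein galectin-10 of eosinophils, stood at 450.5 and 389.9 against 0.137 and 0. EPX, eosinophil peroxidase, stood at 352 and 351 against 0.195 and 0.147. For each of the 15 genes, both HL60 libraries lay far above both Kasumi-1 libraries, as the choice by size of difference implies. The calprotectin subunits S100A8 and S100A9, calcium-binding proteins of neutrophils and monocytes, stood at 322 and 269.7 and at 622 and 555 FPKM in HL60. In Kasumi-1 S100A8 was listed at 1.47 and 0 and S100A9 at 7.66 and 5.12, so that the Kasumi-1 libraries themselves differed at these low levels. TYROBP, the DAP12 adaptor of activating receptors, stood at 222 and 190.1 in HL60 and 0.607 and 0.459 in Kasumi-1. The protease inhibitors CST7, CSTA and SERPINB10 differed by −6.14, −5.94 and −5.74, and BEX1, a small brain-expressed X-linked protein, by −6.92. VIM, which encodes the intermediate filament vimentin, stood at 65.4 and 67.0 FPKM in HL60 and only 0.180 and 0.0545 in Kasumi-1 (−5.91, SE 0.08). The adaptor gene LAT2 and CXCR4, the receptor that holds blood progenitors in the marrow, differed by −5.79 and −5.69. DEFA1 and DEFA1B, neutrophil defensins, are near-identical copies that share reads, so their nearly equal values, 163 and 162 FPKM in HL60 against 2.38 in Kasumi-1 for both, are uncertain as separate levels.

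**Figure D2:**
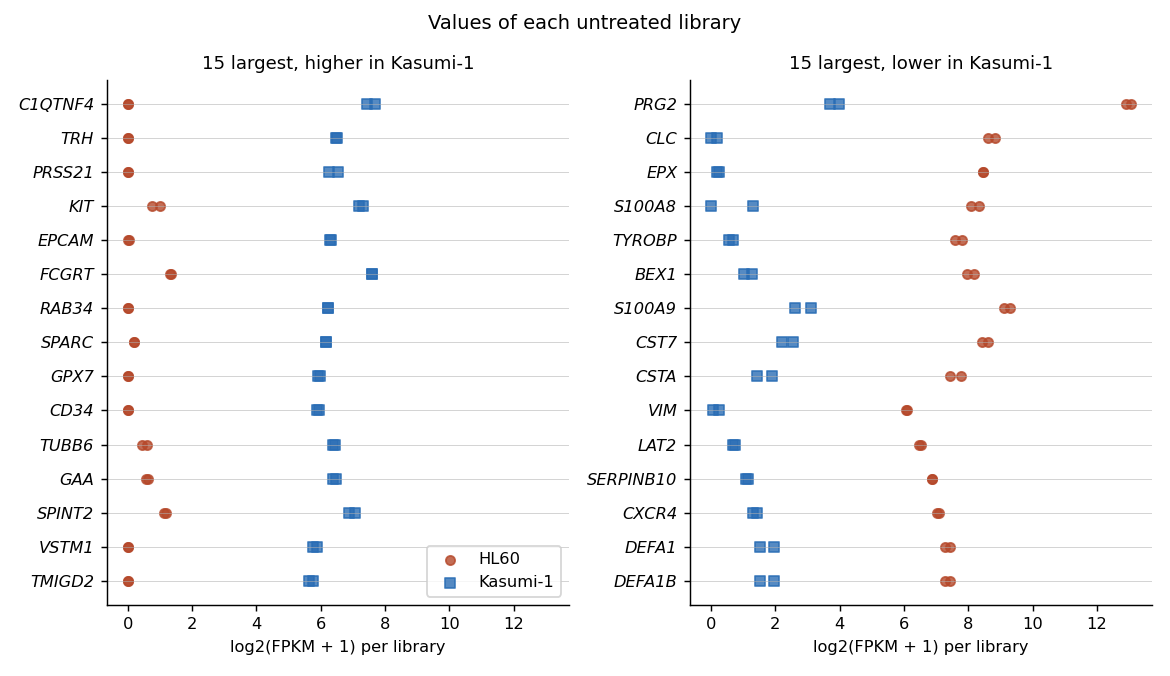
Log2(FPKM + 1) of each untreated library (circles, HL60; squares, Kasumi-1; 2 libraries per line) for the 15 genes with the largest difference in each direction. Within every row the symbols of the lines are well apart, as the choice by size of difference implies. The widest spread between libraries of a line is that of S100A8 in Kasumi-1 (0 and 1.47 FPKM).

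Since RUNX1 and its fusion bind DNA through the same domain, the core RUNX sequence TGTGGT was looked for in the promoters of these 30 genes, on both strands (ACCACA in the printed strand). RefSeq (GRCh38.p14) gave a window of 250 bases before the start for 17 of the 30, and 6 of these held a match, 3 of 10 windows of genes higher in Kasumi-1 among them. Of 35116 RefSeq promoter windows of this length, 11% held one, but the 17 windows are few and belong to genes picked by their difference. In longer promoter sequences a match was held by 9.85% of genes at least 2-fold higher in Kasumi-1. The share was 10.1% for genes at least 2-fold lower and 9.35% for all tested genes with a promoter. No difference between these shares was tested. The sequences are shown for PRSS21 and FCGRT, higher in Kasumi-1, and for CLC, S100A9 and VIM, lower in Kasumi-1, because they hold a match and have their values in every library given above. Letters in capitals mark the match, and each line runs 5′ to 3′ on the gene's strand up to the base before the start.
PRSS21, chr16:2816987-2817236, plus strand: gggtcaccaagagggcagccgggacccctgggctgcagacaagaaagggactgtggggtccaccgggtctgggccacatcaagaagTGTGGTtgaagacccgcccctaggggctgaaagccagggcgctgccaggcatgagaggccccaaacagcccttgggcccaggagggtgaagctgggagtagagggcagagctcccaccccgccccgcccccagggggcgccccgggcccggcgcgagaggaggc
FCGRT, chr19:49512411-49512660, plus strand: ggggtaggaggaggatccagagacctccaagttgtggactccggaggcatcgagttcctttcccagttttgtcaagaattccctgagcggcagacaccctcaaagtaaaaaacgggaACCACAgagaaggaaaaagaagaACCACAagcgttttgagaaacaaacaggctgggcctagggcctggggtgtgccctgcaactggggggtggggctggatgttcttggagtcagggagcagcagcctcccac
CLC, chr19:39738030-39738279, minus strand: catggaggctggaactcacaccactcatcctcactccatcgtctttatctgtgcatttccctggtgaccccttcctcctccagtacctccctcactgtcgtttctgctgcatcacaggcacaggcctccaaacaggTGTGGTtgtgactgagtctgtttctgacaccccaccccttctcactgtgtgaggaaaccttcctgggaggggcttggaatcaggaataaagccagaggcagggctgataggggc
S100A9, chr1:153357604-153357853, plus strand: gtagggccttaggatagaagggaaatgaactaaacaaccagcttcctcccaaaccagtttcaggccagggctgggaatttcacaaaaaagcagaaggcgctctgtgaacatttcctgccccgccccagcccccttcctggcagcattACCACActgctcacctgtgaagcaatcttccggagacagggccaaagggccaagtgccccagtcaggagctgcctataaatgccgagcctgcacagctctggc
VIM, chr10:17227991-17228240, plus strand: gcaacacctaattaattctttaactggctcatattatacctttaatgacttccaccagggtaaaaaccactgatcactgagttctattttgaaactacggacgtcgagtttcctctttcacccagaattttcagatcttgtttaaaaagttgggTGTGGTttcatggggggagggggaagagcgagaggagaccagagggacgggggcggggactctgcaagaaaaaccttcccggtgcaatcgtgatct
The first base of the match lies 164 bases before the start in PRSS21, 114 in CLC, 103 in S100A9 and 96 in VIM. The match stands on the printed strand in PRSS21, CLC and VIM and on the opposite strand in S100A9. FCGRT holds 2 matches, both on the opposite strand. The windows of TRH, KIT and CD34 held none. A match of these letters is a description and shows no binding, and the 5 genes shown above differ in opposite directions. No conclusion is drawn from comparing these motif shares, since only 76.8% of the tested genes and 17 of the 30 had a promoter window. The 11% is also a share of all RefSeq promoters and not of tested genes. In the longer sequences 13.1% of all RefSeq promoters held a match, against 9.35% for tested genes.

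Genes known from RUNX1-RUNX1T1 leukaemia differed in both directions. Of 12 tested genes that are often high in this leukaemia, 7 (58.3%) were higher in Kasumi-1 and 5 (41.7%) lower. The shares of all tested genes were 37.9% and 35.1%. The median of the list was 1.59, and that of all tested genes 0.01. Higher were TRH and RUNX1T1, already given, and BAALC, a marker of immature leukaemia (11.1 and 11.9 FPKM, listed at 0 in HL60). The axon guidance receptor gene ROBO1 was listed at 0 against 6.08 and 6.80. JUP, plakoglobin, which joins cadherins to the cytoskeleton, was higher at 35.8 ± 3.3 against 101 ± 6.6. Lower in Kasumi-1 were PRG2, the tumour antigen PRAME (48.2 ± 2.4 in HL60, 3.17 ± 0.027 in Kasumi-1), the interleukin-5 receptor gene IL5RA, the testis-type cyclin CCNA1 and the B cell gene CD79A (−2.13, −1.62 and −1.09). The other 6 genes of the list, POU4F1 and CAV1 among them, stayed under 1 FPKM in all 4 libraries.

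Genes reported as repressed by the fusion included some of the widest gaps. Of 16 tested members, 8 (50%) were lower in Kasumi-1 and 5 (31.25%) higher, with a median of −0.52. The shares of all tested genes were 35.1% and 37.9%. LAT2, a linker of immune receptor signalling, stood at 89.96 ± 2.6 FPKM against 0.645 ± 0.043. NFE2, a transcription factor of megakaryocytes and erythroid cells, stood at 61.8 and 61.8 in HL60 and 0.721 and 0.875 in Kasumi-1. CEBPA, the master factor of granulocyte commitment, stood at 144 and 139 against 3.75 and 3.92, a difference of −4.88 (SE 0.06, limma adjusted p = 5.51e-10). RASSF2, a RAS effector, was lower by a similar margin (−4.06), as was LYZ, lysozyme (−5.57). SPI1 was lower too, at 149 ± 0.88 against 78.4 ± 4.4, yet remained well expressed in both lines. Members that stood higher in Kasumi-1 were ID1, an inhibitor of basic helix-loop-helix factors (0.213 ± 0.0042 in HL60, 12.9 ± 1.7 in Kasumi-1), the neutrophil elastase gene ELANE, the signalling inhibitor UBASH3B, CSF1R and the repressor GFI1. CTSG, NF1 and CDKN2A were not called.

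Among the core binding factor genes themselves, RUNX1 was higher and RUNX3 lower in Kasumi-1. Of 16 tested genes of this family and its corepressors, 8 (50%) were higher and 5 (31.25%) lower in Kasumi-1. The shares of all tested genes were 37.9% and 35.1%. RUNX3 stood at 17.9 and 17.9 FPKM in HL60 and 5.24 and 6.08 in Kasumi-1, RUNX2 at 7.84 ± 0.20 and 5.002 ± 0.56. CBFB, the partner subunit that stabilises RUNX proteins on DNA, stood at 16.8 and 21.5 in HL60 and 14.9 and 20.3 in Kasumi-1, values that overlap (difference −0.12, 95% interval −0.62 to 0.37). Among the corepressors TLE1 was higher (0.0763 ± 0.0049 against 2.57 ± 0.20) and TLE4 lower (13.2 ± 0.018 against 5.79 ± 0.18). HDAC1 was not called (interval −0.15 to 0.19), and the call of NCOR1, a difference of 0.18, was lost whichever of the 4 untreated libraries was left out. CBFA2T3, a relative of RUNX1T1, was lower (−0.70).

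Stem and progenitor genes were mostly higher in Kasumi-1. Of 22 tested, 16 (72.7%) were higher and 4 (18.2%) lower, where 37.9% and 35.1% of all tested genes were. By at least 2-fold 11 were higher and 2 lower, and the median was 0.99. After KIT and CD34 came CD200, an immune inhibitory surface protein (listed at 0 in HL60, 24.0 and 24.9 FPKM in Kasumi-1), and ERG, an ETS factor of stem cells (0.173 and 0.225 against 17.7 and 17.9). SOX4 (3.93 ± 0.37 against 21.0 ± 4.2) and the kinase gene CDK6 (18.2 ± 3.2 against 42.9 ± 10) were higher as well. Smaller differences were seen for LMO2, FLI1, HHEX and LYL1, factors of early blood cells, at 0.79, 0.61, 0.88 and 0.40. In the other direction, FLT3, a receptor of early progenitors, stood at 31.2 and 32.8 FPKM in HL60 and 3.97 and 4.004 in Kasumi-1 (−2.73). GATA2, which acts in stem cells and also in mast cells and eosinophils, stood at 34.9 ± 0.59 against 8.28 ± 0.36, and WT1 at 15.3 ± 0.93 against 8.09 ± 0.46. MYB was only slightly lower (−0.19), and ETV6 and MSI2 were not called. PROM1, MECOM, HLF, SPINK2 and MN1 did not pass the filter in either line.

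Of the listed HOX genes, HOXA5 and HOXA10 set Kasumi-1 apart. HOXD13, which was not on the list, did so as well, at 0.0526 and 0 FPKM against 6.05 and 6.69. HOXA10 stood at 0.420 and 0.545 FPKM in HL60 and 17.0 and 17.3 in Kasumi-1, and HOXA5 at 0.0385 and 0 against 8.04 and 8.26. Of the 25 HOX genes and cofactors on the list, 17 stayed under 1 FPKM in all 4 libraries, HOXA9 and MEIS1 among them. Of 7 tested members 5 (71.4%) were higher in Kasumi-1, where 37.9% of all tested genes were. HOXA10 and HOXA5 passed the filter only through Kasumi-1 and PBX3 only through HL60. For these, being tested already set the direction, so the count is no evidence about the list. Among cofactors, PBX2 was higher (27.3 ± 0.016 against 69.6 ± 2.1) and PBX3 lower (1.81 and 2.74 against 0 and 0.0227). MEIS2 was not called (interval −0.22 to 0.35).

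Myeloid transcription factors were mostly lower in Kasumi-1, where 13 of 21 tested (61.9%) were lower and 8 (38.1%) higher (median −0.92). The shares of all tested genes were 35.1% and 37.9%. Besides CEBPA, the CEBP family was represented by CEBPE, a factor of late granulocyte steps, at 193 and 183 FPKM in HL60 and 58.6 and 47.1 in Kasumi-1. CEBPB and CEBPG were lower (−1.55 and −1.12), whereas CEBPD was higher at 20.4 ± 2.7 against 29.2 ± 0.45. GFI1B, a repressor of the megakaryocyte and erythroid branch, was listed at 0 in both Kasumi-1 libraries and at 4.50 and 4.12 in HL60. NFIL3, a circadian and lymphoid factor, and RARA, the retinoic acid receptor, were lower (−2.49 and −1.28). STAT5A and STAT3, which carry cytokine signals to DNA, were higher, at 8.69 ± 0.032 against 47.7 ± 0.38 and 11.4 ± 0.58 against 29.2 ± 0.28. IRF8, a monocyte factor, was listed at 0 in HL60 and stood at 1.58 and 2.05 in Kasumi-1. The call of VDR, at −0.26, was lost in 4 alternatives, 3 of them without 1 library.

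Primary granule genes differed in both directions. All 19 were tested, 8 higher, 8 lower (42.1% each) and 3 not called, with a median of −0.06. These shares were near the 37.9% and 35.1% of all tested genes. MPO, myeloperoxidase, stood at 3285 and 3369 FPKM in HL60 and 6013 and 6098 in Kasumi-1 (difference 0.86, SE 0.09, limma adjusted p = 3.05e-05), and was among the 8 most abundant genes of Kasumi-1. The serine proteases went the same way: ELANE stood at 209 and 203 against 1303 and 1149, PRTN3, proteinase 3, at 548 and 531 against 2262 and 2144. AZU1, azurocidin, and PRSS57 were higher by 1.23 and 2.01. SERPINB1, the cytosolic inhibitor of these proteases, was higher as well, at 64.2 and 61.4 in HL60 and 535 and 524 in Kasumi-1. CTSG, cathepsin G, did not follow, at 207 ± 18 against 223 ± 18 (interval −0.14 to 0.36). Lower in Kasumi-1 were LYZ (677 and 733 against 14.1 and 13.7) and the proteoglycan gene SRGN, which packs granule contents (1497 and 1517 against 45.4 and 49.2). The bactericidal protein gene BPI was lower too (52.7 ± 2.3 against 1.31 ± 0.0080). MS4A3, a membrane protein of promyelocytes, stood at 68.0 ± 2.3 against 1.10 ± 0.23, and the defensins DEFA1 and DEFA3, whose rows share reads, were both lower. The call of CFD, at −0.43, was lost without HL60 replicate 1 or Kasumi-1 replicate 2.

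Later granule genes and eosinophil genes were low in Kasumi-1. Of 9 tested specific and gelatinase granule genes 8 were lower, each by at least 2-fold, and the median was −2.36. CHI3L1, a chitinase-like protein, stood at 43.2 and 39.7 FPKM in HL60 and 0.496 and 0.355 in Kasumi-1, HP, haptoglobin, at 9.61 ± 0.51 against 0.167 ± 0.11, and CEACAM6 at 6.03 ± 0.18 against 0.0292 ± 0.026. The defining genes LTF, CAMP, LCN2 and MMP8 were under the filter in both lines, and 10 of the 19 listed genes stayed under 1 FPKM in all 4 libraries. Among 18 tested eosinophil, basophil and mast cell genes, 15 were lower by at least 2-fold and 2 were higher, TPSAB1 and TPSB2. These near-identical tryptase genes stood under 2 FPKM in all 4 libraries, and both calls were lost without HL60 replicate 2. The summed FPKM of the list was 10044 and 8961 in HL60 and 339.5 and 288 in Kasumi-1. Most of the HL60 sum was PRG2, at 8599.7 and 7663. Most of the Kasumi-1 sum was CTSG, a primary granule gene also on this list, which was not called. RNASE2, the eosinophil-derived neurotoxin, stood at 323 and 268 against 68.3 and 49.5, CPA3, the mast cell carboxypeptidase, at 14.1 ± 0.066 against 0.506 ± 0.11, and LTC4S, leukotriene C4 synthase, at 8.58 ± 2.1 against 0.120 ± 0.0080. GATA1, IL5RA and PRG3 were listed at 0 in both Kasumi-1 libraries and stood at 3.03, 3.41 and 3.03 in HL60. SIGLEC8, CCR3 and MS4A2, surface markers of mature eosinophils, basophils and mast cells, did not pass the filter.

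**Figure D3:**
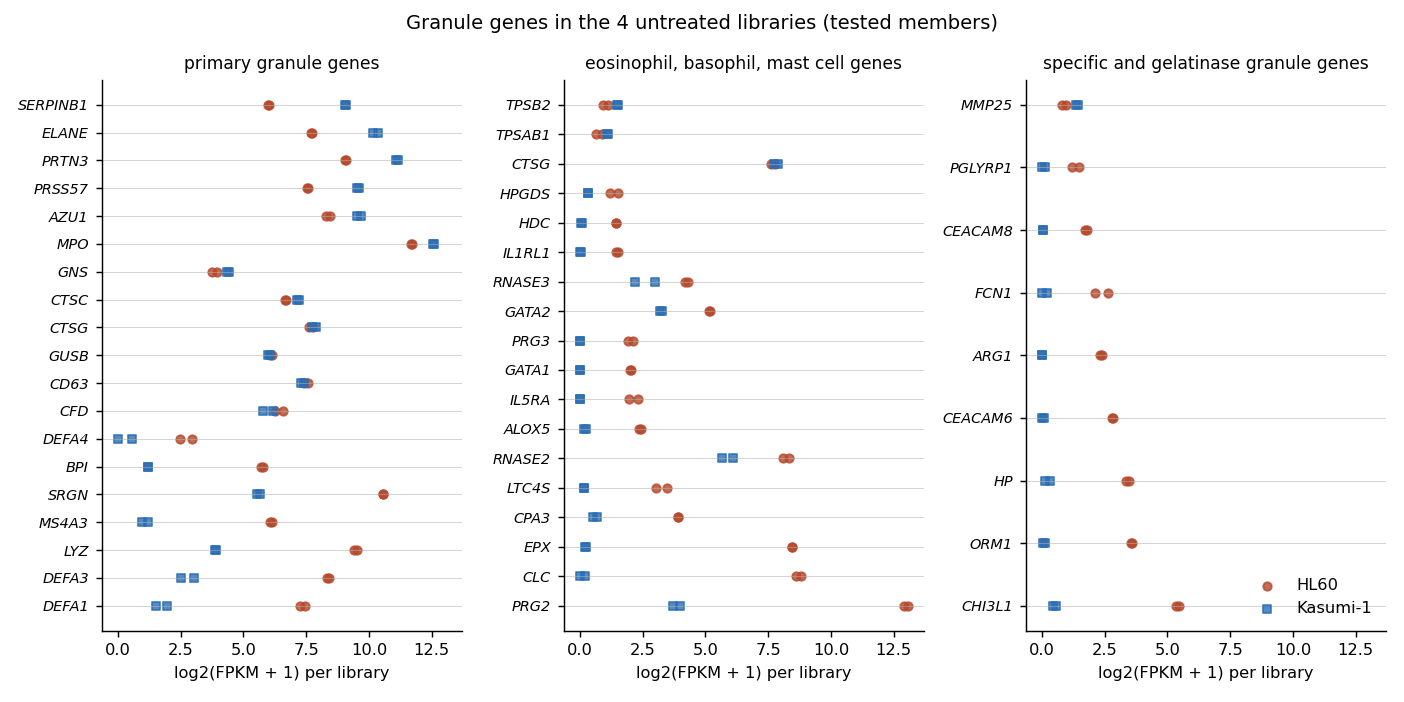
Log2(FPKM + 1) of the 4 untreated libraries (circles, HL60; squares, Kasumi-1) for the tested genes of 3 granule lists, ordered by the difference. In the primary granule panel SERPINB1, ELANE, PRTN3, PRSS57, AZU1 and MPO lie to the right in Kasumi-1 and LYZ, SRGN and the defensins in HL60, whereas 15 of 18 eosinophil, basophil and mast cell genes and 8 of 9 specific and gelatinase granule genes lie to the right in HL60.

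Receptors of phagocytes were lower in Kasumi-1 in 13 of 20 tested genes (65%) and higher in 7 (35%), with a median of −1.53. The shares of all tested genes were 35.1% and 37.9%. Behind TYROBP came CLEC12A, an inhibitory lectin receptor of myeloid cells (68.4 and 62.3 FPKM in HL60, 0.851 and 0.603 in Kasumi-1), and FCER1G, the Fc receptor gamma chain (77.9 ± 11 against 7.56 ± 1.3). The chemoattractant receptors FPR1, FPR2 and C3AR1 were lower (−2.34, −1.67 and −2.53), and CD14 stood at 2.71 ± 0.35 against 0.0835 ± 0.0055. The Toll-like receptors diverged, with TLR4 lower (6.73 ± 0.55 against 1.53 ± 0.21) and TLR2 higher (2.07 ± 0.14 against 15.3 ± 2.1). LILRA2, an activating receptor, was higher at 9.52 ± 0.0017 against 40.9 ± 0.021. The call of CD68 (0.29) was lost whichever of the 4 untreated libraries was left out.

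The subunits of the phagocyte NADPH oxidase did not move together. CYBB, the catalytic gp91phox subunit, stood at 29.2 and 31.9 FPKM in HL60 and 0.407 and 0.345 in Kasumi-1 (difference −4.52, SE 0.09, limma adjusted p = 3.39e-09), while its membrane partner CYBA stood at 186 and 146 against 386 and 333. The cytosolic subunits NCF1 and NCF4 were lower (−2.34 and −1.56). NCF1 has near-identical pseudogenes, so its level is uncertain. RAC2, the blood cell GTPase of the complex, was lower at 230.3 ± 2.1 against 96.3 ± 0.88. In all, 5 of 8 members were lower and 3 higher, and the call of RAP1A (0.18) was lost without HL60 replicate 1 or either Kasumi-1 library.

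Cytokine receptors differed in a similar mixed way, with 14 of 27 tested lower in Kasumi-1 (51.9%) and 7 higher (25.9%). The shares of all tested genes were 35.1% and 37.9%. CSF3R, the receptor of G-CSF, stood at 31.3 and 30.4 FPKM in HL60 and 159 and 163 in Kasumi-1, and IL13RA1 at 1.72 ± 0.35 against 7.65 ± 0.075. The common beta chain CSF2RB, shared by the receptors of GM-CSF, IL-3 and IL-5, was lower, at 22.9 ± 1.5 against 4.66 ± 0.29. IL6R, the ligand-binding chain of the IL-6 receptor, was lower (−2.98) and its signalling chain IL6ST higher (1.33). TNFRSF1B and IL4R were lower (−2.24 and −1.86). CSF2RA and IL3RA occur on more than 1 row and were not tested. Among chemokines and their receptors, 7 of 13 were lower, each by at least 2-fold, and 5 higher. CCL2, a monocyte attractant, stood at 10.6 and 11.4 FPKM in HL60 and 0.107 and 0 in Kasumi-1, IL8 at 15.1 ± 1.1 against 3.90 ± 0.70, and CCL5 was higher at 4.76 ± 0.51 against 36.1 ± 2.1. CCL4, which has near-identical copies, was low in both lines and lower in Kasumi-1.

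RNA of MHC class I and peptide loading genes was mostly lower in Kasumi-1. Of 21 tested genes 15 (71.4%) were lower and 5 (23.8%) higher, with a median of −0.81. The shares of all tested genes were 35.1% and 37.9%. B2M, the shared light chain, stood at 2122 and 1912 FPKM in HL60 and 767 and 672 in Kasumi-1. HLA-B stood at 393 and 392 against 135 and 135 and HLA-C at 217 and 212 against 60.1 and 54.0. HLA genes are polymorphic and similar, so reads can map unequally in the lines, and these levels are uncertain. The peptide transporter genes TAP1 and TAP2 were lower (−2.20 and −1.21), the immunoproteasome genes PSMB9 and PSMB8 likewise (−2.51 and −2.10), and NLRC5, the activator of class I genes, as well (−1.31). ERAP1, a peptide trimmer of the ER, was higher, at 4.96 ± 0.098 against 16.9 ± 1.5. The number of higher members dropped from 5 to 3 without HL60 replicate 1, HL60 replicate 2 or Kasumi-1 replicate 1, since HLA-G and PSME1 lost their calls. Of 8 tested class II genes 3 were higher and 4 lower. CD74, the invariant chain, stood at 4.37 and 4.74 FPKM in HL60 and 53.2 and 52.9 in Kasumi-1, and HLA-DRA was listed at 0 against 3.61 and 4.02. IFI30, a lysosomal thiol reductase, went the other way (39.2 ± 1.0 in HL60, 2.31 ± 0.20 in Kasumi-1), and the class II activator CIITA did not pass the filter.

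Interferon-stimulated genes were higher in Kasumi-1 in 14 of 22 tested genes (63.6%) and lower in 5 (22.7%), with a median of 0.42. The shares of all tested genes were 37.9% and 35.1%. The antiviral membrane protein gene IFITM3 stood at 15.03 and 15.05 FPKM in HL60 and 288 and 278 in Kasumi-1, and IFITM1 at 7.56 and 6.48 against 84.6 and 74.7. IFITM genes are similar to each other, so the split between them is uncertain. IFI6 and BST2, tetherin, were higher by 1.90 and 1.48, and IFIT1, IFIT2 and IFIT3 by 2.105, 1.68 and 1.93 at levels under 7 FPKM. ISG15, a ubiquitin-like modifier, was lower, at 13.5 ± 0.94 against 4.53 ± 1.1, and TRIM22 was lower (−1.04). IRF1 was not called, and MX1, OAS1 and IFI44L did not pass the filter.

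Adhesion genes differed in both directions. Of 36 tested, 20 (55.6%) were higher and 15 (41.7%) lower, where 37.9% and 35.1% of all tested genes were. By at least 2-fold 15 were higher and 12 lower, and the median was 0.73. Higher in Kasumi-1 were the tetraspanin CD37 (6.48 and 7.24 FPKM in HL60, 167 and 175 in Kasumi-1), N-cadherin, encoded by CDH2 (listed at 0 against 8.16 and 8.79), and the junction gene ESAM (listed at 0 against 20.9 and 20.6). ICAM1 stood at 0.275 and 0.286 against 10.2 and 10.1. The fibronectin receptor subunits ITGB1 and ITGA5 were higher by 1.56 and 1.63, and the hyaluronan receptor CD44 by 1.18. The leukocyte integrin subunits were lower: ITGAL stood at 29.8 and 31.2 FPKM in HL60 and 0.456 and 0.441 in Kasumi-1, and ITGB2, its partner, at 60.1 ± 3.2 against 25.7 ± 2.4. ITGAM and ITGAX, the other partners of ITGB2, were lower (−1.77 and −1.27). SELPLG, the selectin ligand PSGL-1, stood at 41.2 ± 0.32 against 0.585 ± 0.10, and CD47, the signal that restrains phagocytes, at 38.1 ± 3.6 against 6.36 ± 0.83. TSPAN32 was lower (−5.39).

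MYC, which drives ribosome production and growth, differed by −1.31 (SE 0.05, limma adjusted p = 1.25e-07), and most of its nucleolar targets differed far less. Of 57 such targets 34 (59.6%) were lower in Kasumi-1 and 9 (15.8%) higher, where 35.1% and 37.9% of all tested genes were. Only 2 of the lower and 1 of the higher targets differed by at least 2-fold, and the median was −0.22. NCL, nucleolin, stood at 597 and 586 FPKM in HL60 and 303 and 288 in Kasumi-1. NOP2, an rRNA methyltransferase, was the lowest at −1.42, and FBL, fibrillarin, stood at 362 ± 0.36 against 264 ± 0.75. BOP1, which acts in large subunit assembly, was higher at 45.8 ± 0.22 against 102 ± 1.5, and NPM1, nucleophosmin, was not called (interval −0.02 to 0.30). Of 48 other MYC targets, 20 (41.7%) were lower and 16 (33.3%) higher, near the shares of all tested genes (median −0.11). TFRC, the transferrin receptor, and the cyclin CCND2 were lowest (−1.81 and −1.86), ODC1, of polyamine synthesis, was lower (−0.31), and PAICS and PPAT, neighbouring genes of purine synthesis, were higher by 1.03 and 0.92. Within the MYC network, MYCN was listed at 0 in HL60 and stood at 2.26 and 2.50 in Kasumi-1. The MYC antagonist MXD1 was lower (−0.84) and MXD4 higher (1.40), and the partner MAX stood at 37.0 ± 0.29 against 39.2 ± 3.0 (interval −0.08 to 0.23).

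The cytosolic ribosomal protein genes had a median difference close to 0, and how many were called depended on the processing. Of 82 tested, 57 were not called, 13 were higher and 12 lower, where 73% of all tested genes were called, and their median was −0.0027. RPS18 was the most abundant gene of both lines, at 8946 and 8195 FPKM in HL60 and 9009 and 7965 in Kasumi-1. RPL21 and RPS15A were lower (−1.47 and −1.20), and RPS23, RPS26 and RPL8 higher (1.16, 1.16 and 1.06). RPL39L, a tissue-restricted copy of RPL39, stood at 4.42 ± 0.20 against 24.9 ± 4.6. Many of these genes have pseudogenes that share reads, so single values are uncertain. With a replicate block 23 were higher and 24 lower, quantile normalization called 26 higher and 15 lower, and without HL60 replicate 1 or Kasumi-1 replicate 2 only 6 were lower.

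DNA replication genes were lower in Kasumi-1 in 34 of 42 cases (81.0%), with 4 higher (9.5%) and a median of −0.44. PCNA, the polymerase clamp, stood at 336 and 309 FPKM in HL60 and 179 and 165 in Kasumi-1. The clamp loader gene RFC3 and the polymerase subunit POLD3 were lowest (−1.62 and −1.39), the ribonucleotide reductase gene RRM2 was lower (−1.04), and the helicase subunits MCM2 to MCM7 were all lower, between −0.76 (MCM3) and −0.22 (MCM6). MCM10 and ORC2 were the clearest exceptions, higher by 1.36 and 0.88. G1 regulators followed with 15 of 23 lower and 4 higher (median −0.37). CCND3, a D-type cyclin, stood at 31.2 ± 1.1 against 8.01 ± 0.66, CDK2 at 46.3 ± 0.18 against 23.3 ± 0.93, and RB1 at 20.8 ± 2.1 against 11.96 ± 1.7. CDKN2D, an inhibitor of CDK4 and CDK6, was lower (−2.49) and CDKN2C higher (1.02). Of 38 mitotic genes 14 (36.8%) were lower and 11 (28.9%) higher, with a median of −0.08. The shares of all tested genes were 35.1% and 37.9%. FOXM1, a driver of mitotic transcription, stood at 29.1 ± 0.96 against 11.2 ± 0.0013, BUB1B was lower (−1.37), and CCNB1 was higher by 1.01.

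Genes of cholesterol synthesis and uptake were lower in Kasumi-1 in 17 of 24 cases, 10 of them by at least 2-fold, and higher in 4 (median −0.70). FDPS, which makes farnesyl diphosphate, stood at 221 ± 5.7 FPKM against 62.6 ± 5.7, and HMGCS1, an early enzyme, at 115 ± 2.5 against 35.2 ± 1.3. SQLE, which oxidises squalene, was not called (interval −0.12 to 0.13). TM7SF2, a sterol reductase, was higher (2.07). The lines differed in serum, a source of cholesterol, and its part in these values cannot be told apart from that of the line.

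Glycolysis genes differed in both directions, and some isoforms of an enzyme went opposite ways. Of 23 tested 9 were higher and 9 lower (39.1% each), with a median of 0.06. These shares were close to the 37.9% and 35.1% of all tested genes. The hexokinase gene HK1 stood at 1.59 and 1.71 FPKM in HL60 and 48.3 and 51.3 in Kasumi-1, and HK3, the myeloid hexokinase, at 3.92 and 3.58 against 0.0605 and 0.0184. Among phosphofructokinases PFKP was higher (23.9 ± 0.35 against 73.0 ± 0.68) and PFKM lower (4.36 ± 0.052 against 0.562 ± 0.056). The lactate exporter gene SLC16A3 was lower at 81.7 ± 0.079 against 8.72 ± 0.31, and the abundant enzymes GAPDH, ALDOA and TPI1 were lower (−0.76, −1.11 and −0.92).

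The Na+/K+-ATPase, which cinobufagin binds as cardiac glycosides do, was followed here through its beta subunit and a regulator. The beta subunit gene ATP1B3 stood at 91.2 and 85.7 FPKM against 92.2 and 83.9, with an interval of −0.16 to 0.15. FXYD5, a regulator of the pump, was higher at 192 ± 2.7 against 312 ± 8.2. Of 9 tested drug transporter genes 4 were higher and 1 lower. ABCB1, P-glycoprotein, was listed at 0 in HL60 and stood at 1.22 and 1.14 in Kasumi-1, and the lipid transporter gene ABCA2 was lower at 20.4 ± 0.75 against 1.15 ± 0.051.

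BCL2 family and death genes had 12 of 31 higher, 11 lower and 8 not called. These shares, 38.7% higher and 35.5% lower, were close to the 37.9% and 35.1% of all tested genes. BCL2 stood at 19.3 and 18.8 FPKM in HL60 and 6.86 and 8.09 in Kasumi-1 and BCL2A1 at 13 ± 0.86 against 1.24 ± 0.076, both antiapoptotic, while BCL2L1, which encodes BCL-XL, was higher at 6.73 ± 0.23 against 18.4 ± 0.26. The death effector gene BOK and the sensitizer BIK were higher (2.21 and 1.54). Of 31 RAS and MAPK genes 11 were higher (35.5%) and 13 lower (41.9%), also near the shares of all tested genes. DUSP6, a phosphatase induced by ERK signalling, stood at 13.7 ± 0.37 against 49.1 ± 0.91, and the ERK target ETV4 went the other way, at 3.56 ± 0.14 against 0.238 ± 0.083. NRAS stood at 15.3 and 18.6 in HL60 and 18.1 and 24.8 in Kasumi-1, which was not called.

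Chromatin genes had 13 of 30 higher (43.3%) and 9 lower (30%), near the 37.9% and 35.1% of all tested genes. DNMT3A, a de novo DNA methyltransferase, stood at 1.95 and 2.08 FPKM in HL60 and 26.1 and 28.9 in Kasumi-1 (difference 3.24, SE 0.09, limma adjusted p = 1.27e-08). TET1 was higher (0.539 ± 0.056 against 7.33 ± 0.97) and TET2 lower (7.64 ± 0.47 against 3.34 ± 0.30), both enzymes that oxidise methylated cytosine. The cohesin gene RAD21 was lower at 69.9 ± 3.9 against 33.2 ± 1.9. Embryonic and cancer-testis genes also differed in both directions: of 7 tested, 4 were higher and 3 lower, and 21 stayed under 1 FPKM. The IGF2 mRNA-binding protein genes changed places, since IGF2BP1 stood at 15.4 and 17.3 in HL60 and 0.0270 and 0.0368 in Kasumi-1, and IGF2BP2 was listed at 0 against 36.8 and 39.2. LIN28B and HMGA2, a repressor of let-7 maturation and one of its targets, were listed at 0 in HL60 and stood at 4.78 and 5.90 and 3.26 and 4.35 in Kasumi-1.

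**Figure D4:**
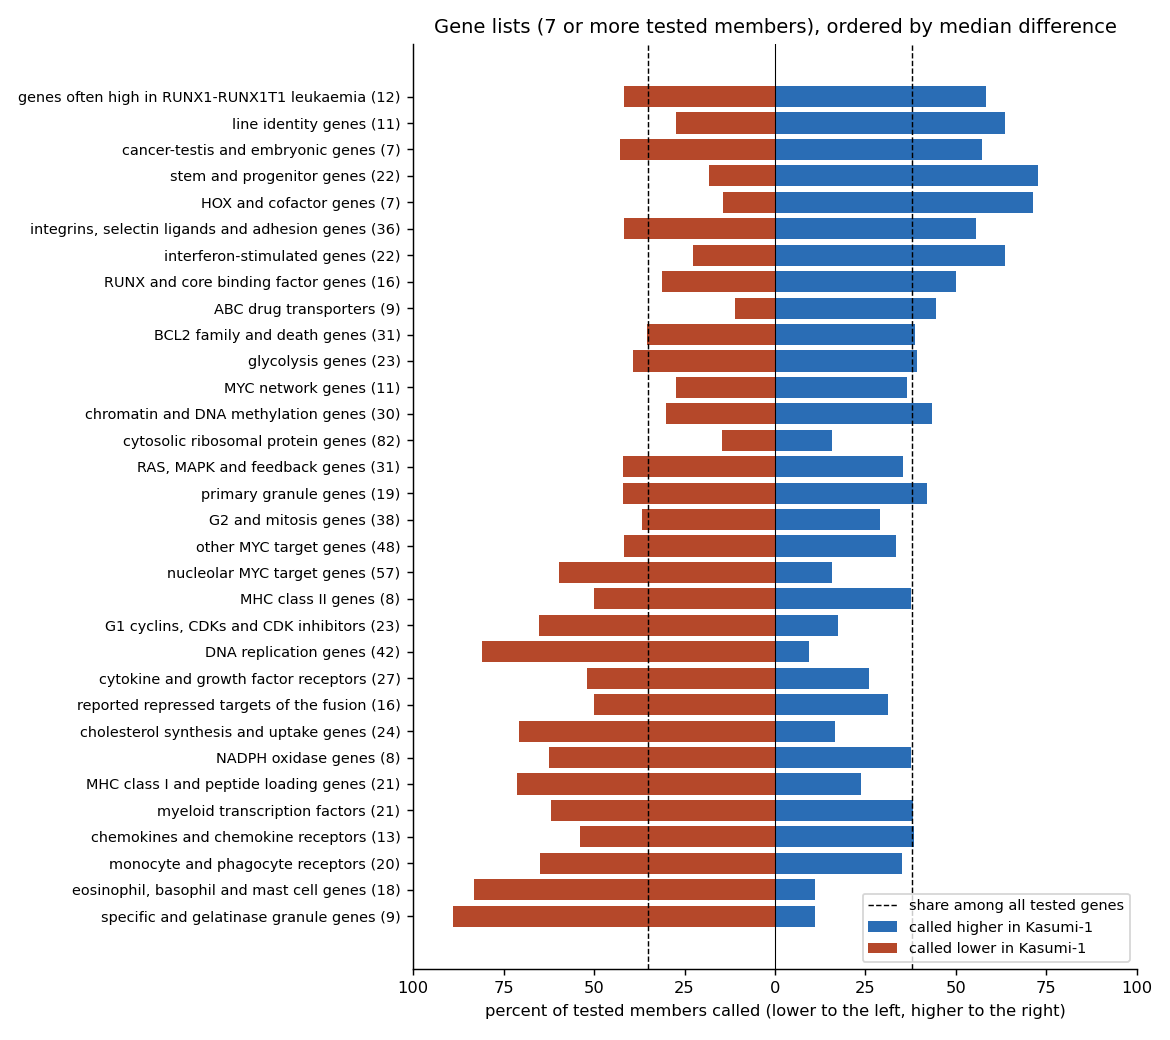
Bars give the percent of the tested members of each gene list (number tested in parentheses) called higher (right) or lower (left) in Kasumi-1, and dashed lines give the shares among all tested genes, 37.9% and 35.1%. Stem and progenitor genes reach farthest to the right, with 16 of 22 higher, DNA replication genes (34 of 42 lower) and eosinophil, basophil and mast cell genes (15 of 18 lower) reach far to the left, and ribosomal protein genes, whose counts move with the processing, have short bars on both sides.

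Some abundant genes had almost the same mean in both lines. Among genes with at least 100 FPKM in both, the 6 smallest differences belonged to CDK4, MDH2, NDUFS6, RPL18, RHOA and COX7B. CDK4, the D-cyclin-dependent kinase, stood at 182 and 173 FPKM in HL60 and 182 and 172 in Kasumi-1, with a 95% interval of the difference of −0.14 to 0.14. MDH2, mitochondrial malate dehydrogenase, stood at 241 and 241 against 241 and 241 (interval −0.14 to 0.14) and RHOA, a GTPase of the cytoskeleton, at 269.9 and 286 against 268 and 288 (interval −0.16 to 0.16). In both lines the most abundant genes were mainly translation genes. RPS18, RPS24, RPS27 and RPLP1 were among the first 8 of each line, PRG2 was the only gene among the first 8 of HL60 that encodes no ribosomal protein, and MPO, EEF1A1 and TPT1 were the ones of Kasumi-1.

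Most genes that mark other kinds of cells were close to 0, apart from a few. Of 22 erythroid and megakaryocyte markers 18 stayed under 1 FPKM in all 4 libraries, HBB, HBA1 and PF4 among them, and the summed level was 43.6 and 43.3 FPKM in HL60 and 294 and 278 in Kasumi-1. That difference rested on GYPC, glycophorin C, which other blood cells also carry, at 37.3 and 36.6 against 288 and 271. Of 18 T and NK cell markers 14 stayed under 1 FPKM, and CD4, which monocytes also carry, stood at 80.7 ± 2.4 against 32.7 ± 0.49. Among 16 B cell markers 13 stayed under 1 FPKM, PAX5 among them. IGLL1, part of the surrogate light chain, stood at 125 and 105 in HL60 and 6.74 and 7.45 in Kasumi-1, and CD79B at 0.920 ± 0.45 against 13.6 ± 0.50. Of 16 fibroblast and epithelial markers only EPCAM passed the filter, and the keratins and collagens on the list stayed under 1 FPKM.

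Differences were unevenly spread over the chromosomes. Gene order was taken from RefSeq for 11079 of the tested genes, as a description with no test. The median difference on chromosome 10 was 0.61, with 84.0% of its 426 tested genes above 0 and 30.3% called at least 2-fold higher in Kasumi-1. Chromosome 5 had a median of 0.41 (485 genes, 26.6% at least 2-fold higher). The lowest medians were those of chromosome 13, at −0.64 (199 genes, 33.2% at least 2-fold lower), chromosome 16, at −0.52 (545 genes), and chromosome 15, at −0.28 (342 genes). The remaining chromosomes lay between −0.19 and 0.22.

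The highest and lowest runs of neighbouring genes are described next. Medians further from 0 than those of whole chromosomes follow from this choice and from the small size of a run. Over 10527 runs of 25 neighbouring tested genes, the middle 90% of the medians lay between −0.80 and 0.69. The highest run, on chromosome 10 from ZMYND11 to TAF3, had a median of 1.57 with all 25 genes above 0, among them ZMYND11 (6.02 ± 0.16 FPKM in HL60, 20.2 ± 0.31 in Kasumi-1), the glycolysis gene PFKP and KLF6. Another, also on chromosome 10, from UPF2 to C10orf114, had a median of 1.36 with 24 of 25 genes above 0, and the exception was VIM. A run on chromosome 4 from TEC to ARL9, had a median of 1.22 and held KIT, PPAT and PAICS, with 23 of 25 genes above 0. The lowest run was a cluster of zinc finger genes on chromosome 19 from FPR1 to ZNF28, with a median of −1.68 and 1 of 25 genes above 0. ZNF350 in it stood at 10.3 and 10.3 FPKM in HL60 and 0.0271 and 0.0739 in Kasumi-1, and the exception was PPP2R1A, a phosphatase scaffold (0.39). On chromosome 13, a run from USPL1 to COG6 had a median of −1.62 and held BRCA2, RFC3, CCNA1, RFXAP and ALOX5AP (109.7 ± 6.9 against 6.07 ± 1.2), and one from MIPEP to LINC00426 had a median of −1.34 and held FLT3, RPL21 and CDK8. Several genes named above as large differences therefore had neighbours that differed in the same direction.

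Neighbours of MYC mostly had the opposite direction. Of the 16 nearest tested genes in order along chromosome 8, 11 were higher in Kasumi-1 and 3 lower, with a median of 0.80, although MYC itself was lower (−1.31). FAM84B stood at 0.0106 and 0.0309 FPKM in HL60 and 16.5 and 16.7 in Kasumi-1, FAM49B at 42.9 ± 0.27 against 94.2 ± 3.8, and the long noncoding RNA gene PVT1 at 5.69 ± 1.0 against 11.9 ± 1.0. TRIB1, a pseudokinase that directs CEBPA to degradation, shared the direction of MYC, at 49.9 and 47.6 in HL60 and 9.91 and 9.95 in Kasumi-1. The 16 neighbours of CDKN2A had a median of 0.06, with 5 higher and 5 lower, and MTAP, next to it, stood at 11.2 ± 0.11 against 5.31 ± 0.71.

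**Figure D5:**
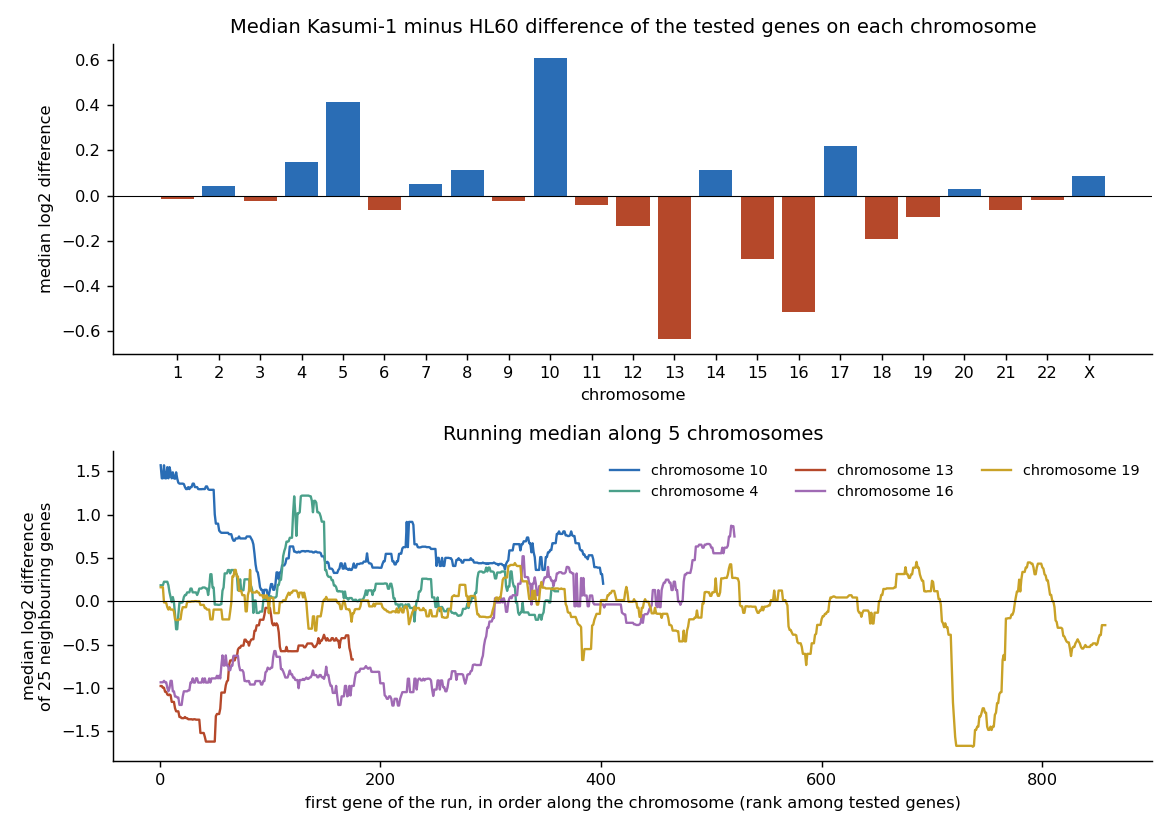
Upper panel: median Kasumi-1 minus HL60 difference of log2(FPKM + 1) over the tested genes of each chromosome (blue, above 0; red, below 0), highest on chromosome 10 (0.61) and lowest on chromosome 13 (−0.64). Lower panel: median over runs of 25 neighbouring tested genes in order along 5 chromosomes (x axis, rank of the first gene), which reaches 1.57 on chromosome 10 and −1.68 on chromosome 19.

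Most large differences had the same direction in the treated libraries, which are separate libraries of the same lines. Of 2954 genes with an untreated difference of at least 2-fold, 2802 had the same sign after 24 h with 100 nM cinobufagin, 2715 of these were also called there, and 95 were called in the opposite direction. The choice by size of difference between the same lines makes a shared sign likely. These counts were not made over all tested genes, so they have no share to be read beside. RUNX1T1 was again listed at 0 FPKM in both HL60 libraries and stood at 16.1 and 19.2 in Kasumi-1. MYC was among the genes that turned, at 30.3 and 29.2 FPKM in treated HL60 and 199 and 202 in treated Kasumi-1. PRG2 stayed apart, at 1229.8 and 1523 against 2.73 and 4.09.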

How the data were processed

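RNA of both lines was prepared with the RNeasy and TruSeq Stranded mRNA kits, per the labels' protocols. Per the submitters' processing notes, bcl2fastq 2.20.0, HISAT2 2.1.0, Cufflinks 2.2.1 and the hg19 build were used. The authors deposited 1 table of FPKM values, and no source used here gives the gene annotation, strand setting or filters. Read totals and gene lengths are not in it, so the depth is unknown and no interval for counting error is given.

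The deposited values were taken to log2(FPKM + 1) and fitted in R 4.3.3 with limma 3.58.1, with 1 mean for each of 4 groups over 8 libraries (4 residual degrees of freedom), an intensity trend in the variance and Benjamini-Hochberg adjustment over 11749 genes at 0.05. Left out were 1863 rows of short RNAs and 90 rows of 45 repeated symbols, of which 161 and 56 had passed the filter. The fit was tested on simulated data for these genes, where 67, 67 and 66 genes were changed by 0.5, 1 and 2 on the log2 scale. Of these, 58.2%, 85.1% and 98.5% were called. In the data 73% of the tested genes were called, a far larger share than was changed in the simulation. The adjustment depends on that share, so these rates need not hold for this comparison.

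Named were the 15 largest differences per direction with a mean of at least 5 FPKM in the higher line, the genes that identify the lines, members of gene lists picked by size of difference or level, the 8 most abundant genes per line, the 6 most alike with at least 100 FPKM, and neighbours in gene order. The genes and lists were chosen with earlier results of these data known. Alternatives were another pseudocount, other filters, other scalings, a fit of the untreated libraries alone, a replicate block, no trend, rows kept, and each library left out. Gene order and promoters came from RefSeq (GRCh38.p14). No coordinates of that build were combined with hg19. Results of some genes are not reported here.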

Additional observations from a re-analysis of the deposited data

Results flagged for a closer look

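For 9 of the 11 tested genes listed to identify the lines, the difference between the lines was not the same with and without cinobufagin by limma's test of the interaction, with Benjamini-Hochberg adjustment over all tested genes. The share of all tested genes called by this test was not counted, so 9 of 11 cannot be judged as many or few. The values give the Kasumi-1 minus HL60 difference in treated minus that in untreated libraries, on the log2(FPKM + 1) scale, with 2 libraries per group. The widest was MYC, at 4.022 (adjusted p = 1.11e-07), whose line difference went from −1.31 untreated to 2.71 treated. MPO followed at 3.962 (adjusted p = 2.87e-07), with line differences of 0.86 and 4.83. FLT3 had 2.281 (adjusted p = 1.28e-06), so that its line difference of −2.73 was −0.45 under treatment. CDKN2A, not called between the untreated lines, had −1.986 (adjusted p = 9.77e-05). RUNX1 had −0.9956 (adjusted p = 0.000252), and its line difference remained above 0 at 0.53. Smaller shifts were those of TRH at 0.6703 (adjusted p = 0.000349), CD33 at 0.6324 (0.000716), CD34 at −0.4414 (0.004) and KIT at 0.3902 (0.0281), and the untreated direction was kept in each of these 4.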

How the results depend on the processing

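Calls were recomputed under 13 alternatives. Counts of genes higher, lower and at least 2-fold apart stayed within 1.5 times the reported ones except with a filter at 5 FPKM, which tested only 8708 genes and left 1074 at least 2-fold higher, against 1696. Leaving out 1 untreated library gave 4055 to 4156 genes higher, 3688 to 3847 lower, 1678 to 1727 at least 2-fold higher and 1253 to 1271 lower. Here the line left with 1 library is assumed to vary like the other groups. With the replicate number as a replicate block, 4835 genes were higher and 4583 lower, 1697 and 1260 of them by at least 2-fold. The untreated libraries of the same number deviated together (r = 0.413 across genes), but there are only 2 such pairs, and the labels do not say that a number marks a shared source. With quantile normalization 48.2% of the called genes were higher, against 51.9%, and it reversed KLF1 (−0.3177) and TPSAB1 (−0.1143), both under 2 FPKM. The cause was not tested. Of 834 genes followed one by one, 648 were called and 564 kept their call in every alternative that tested them. None of the 30 largest lost its call, which their choice by size makes likely. Of 76 counts of list members higher or lower, 21 moved by over 1.5 times with the filter at 5 FPKM, 15 with no filter, 6 with quantile normalization, 3 with the replicate block, 1 with no trend, and 1 to 3 without 1 untreated library. Precision is limited by 2 libraries per group, by an unknown depth and by the added 1, which shrinks differences of genes near 1 FPKM.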

Other observations

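S100 genes, which encode small calcium-binding proteins of motile and inflammatory cells, were largely lower in Kasumi-1 beyond the calprotectin pair. The family was chosen after its values were seen. Of 11 tested members 8 were lower and 2 higher, with a median of −3.66. S100A6 stood at 77.4 and 65.3 FPKM in HL60 and 1.09 and 0.553 in Kasumi-1, S100A10, a partner of annexin A2, at 15.7 and 14.9 against 0.409 and 0.186, and S100A4 at 328 and 305 against 105 and 93.3. S100A11 was the exception at a high level, at 177 and 165 against 218 and 189, and was not called (interval −0.02 to 0.52).

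Zinc finger genes with a ZNF symbol, mostly DNA-binding repressors, were also looked at after the run on chromosome 19 had been seen. Of 204 on chromosome 19, 137 were lower in Kasumi-1 and 25 higher, with a median of −0.47. Of 222 on other chromosomes, 74 were lower and 75 higher, with a median of 0.01. Many of these genes are similar in sequence, so single values are uncertain.

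Some genes were found in 1 line and nearly absent in the other. In all, 152 genes had a mean of at least 5 FPKM in Kasumi-1 and under 0.1 in both HL60 libraries, and 54 genes had the opposite pattern. In Kasumi-1 these included SERPINH1, a collagen chaperone (0.0539 and 0.0262 FPKM in HL60, 44.8 and 47.0 in Kasumi-1), PTK2, focal adhesion kinase (0.0385 and 0.05 against 32.8 and 34.0), and MEF2C, a transcription factor of muscle and lymphoid cells (0.00932 and 0.00989 against 22.6 and 27.7). In HL60 they included GPR183, an oxysterol receptor (49.9 and 48.1 against 0.0366 and 0.0333), SLFN11, which sensitises cells to DNA damage (32.1 and 33.7 against 0.0722 and 0.0821), CBR1, carbonyl reductase (27.3 and 21.5 against 0 and 0.0506), and the adaptor gene GRB10 (22.5 and 21.8 against 0.0641 and 0.0361). These genes were picked from the highest of each set after their values were seen.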
